A study of Mus musculus with 2 samples.

Results

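The genes described here are 38 mouse genes of glucose uptake, glycolysis, lactate and pyruvate handling and the hypoxia response, taken as a list of symbols out of 22911 genes with a named probe on the array. All 68 probes of these symbols were followed, of 32994 probes that could be named. The cells were LKS+ cells of mouse BM, sorted as lineage-negative with Kit and Sca-1 on the surface, a fraction that contains hematopoietic stem and progenitor cells (HSPCs). The cells had been propagated in culture and were then given extracellular vesicles (EVs) from spleen (SP) at 150 μg/ml for 24 h. In one culture the EVs came from normal mice (control EVs), and in the other from mice with chronic myeloid leukemia (CML EVs). Both cultures shared a serum-free medium with SCF at 100 ng/ml and with IL-6 and IL-3, each at 10 ng/ml. In the methods the CML model is made by retroviral transfer of BCR-ABL into LKS+ cells, which are injected into sublethally irradiated recipients, and the CML donors of the EVs were irradiated again. The labels do not mention this irradiation and the methods give none for the control donors, and effects of leukemia and of irradiation cannot be told apart. Neither the strain and age of the donors and of the cells' source nor any pooling of animals is given in the labels. The methods name male BALB/c and C57BL/6J mice as WT mice without saying which were used here.

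RNA from each culture was hybridized to 1 one-colour Agilent array, so that there were 2 arrays, 1 for each condition, on 1 slide and in 1 scan. No replicate check exists for any difference, and neither a p-value nor a standard error is given. Signals are background-subtracted intensities scaled to a trimmed mean of 2500 on each array. Log2 ratios have the CML EV array in the numerator, and positive values are higher with CML EVs. A probe counted as measured when the scanner software called it well above background on both arrays, which held for 13412 genes and for all 38 members through at least 1 probe. The spread that could be seen was that between the 10 spots of repeated probes, with a median SD of the log2 ratio of 0.034 over 263 probes of log2 signal 8 or more and 0.17 over 11 dimmer ones, and that between different probes of a gene, with a median SD of 0.043 over 961 genes with at least 2 probes of signal 1000 or more. Neither covers cultures or EV preparations.

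Glycolysis splits glucose into pyruvate in the cytosol. Its upper reactions spend ATP to phosphorylate and cleave the sugar, and its lower reactions return ATP and NADH. Pyruvate is then either reduced to lactate and exported or passed to the mitochondria. When oxygen is low, the prolyl hydroxylases no longer mark HIF-1α for degradation, and its dimer with ARNT binds the core letters ACGTG or GCGTG in genes of glucose uptake, glycolysis and oxygen supply. Stem cells of the BM are known for a high use of glycolysis and for stabilised HIF-1α.

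Most of the 38 genes had a somewhat higher signal with CML EVs, by amounts that were small. Higher were 27 members (71.1%), against 52.0% of all 13412 genes, and 11 were lower. Under median scaling 33 members were higher, together with 71.1% of all genes, and under 75th percentile scaling 30 members, together with 54.4% of all genes. The median log2 ratio of the members was 0.085, or 1.06-fold, against 0.0065 over all genes. Their interquartile range ran from -0.0015 to 0.16 and their full range from -0.12 (Arnt) to 0.51 (Pfkfb4). At least 25% higher were 2 members, Pfkfb4 and Hk3. That share of 5.26% lay at the background, since 5.01% of all genes were as high. No member was at least 20% lower at the probe that stood for it, where 5.25% of all genes were. A dim second probe of Slc2a3 was that much lower. None was 1.5-fold higher or lower, against 1.52% and 1.18% of all genes. Such differences were rarer among bright genes, to which 30 members belonged. Of 5765 genes with a mean signal of 1000 or more, 26 were at least 20% lower, 33 were 1.5-fold higher and 8 were 1.5-fold lower. At a threshold of 10%, chosen after the values had been seen, 15 members (39.5%) were higher with CML EVs against 17.3% of all genes. None was at least 10% higher with control EVs at the probe that stood for it, against 17.2% of all genes. The other 23 differed by under 10% at that probe. Of the 65 member probes measured on both arrays, 23 were at least 10% higher with CML EVs. With control EVs 4 were, which belonged to Slc2a3, Pdk1 and Car9.

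The members were bright genes, and bright genes as a whole leaned toward CML EVs. A mean signal of 1000 or more was reached by 30 members, of which 22 (73.3%) were higher with CML EVs, against 59.7% of the 5765 genes of such signal. At least 10% higher were 12 of these 30, against 14.0% of the bright genes, and 5.52% of the bright genes were at least 10% higher with control EVs. The median of the bright genes was 0.023. The spot SD of 0.034 applies to the 37 members of log2 signal 8 or more, all but P4ha2. Of these, 22 (59.5%) lay more than 2 SDs above 0, against 31.5% of the 9091 genes of such signal, and 5 (13.5%) lay more than 2 SDs below, against 22.0%. Within 1 SD of 0 were 6 (16.2%), against 24.2% of the genes of such signal. The plot of ratio against signal shows the members within the cloud of all genes.

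**Figure D1:**
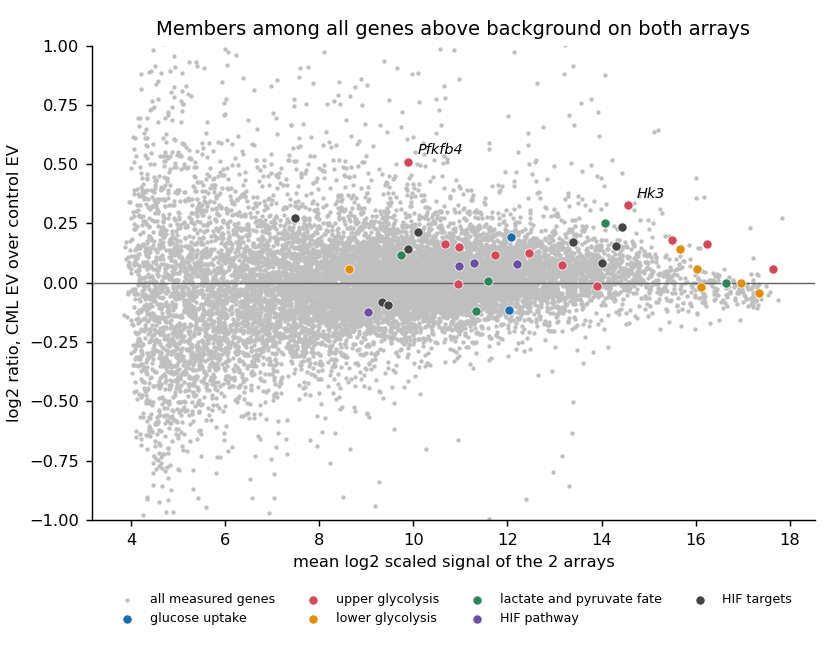
Each point is a gene measured on both arrays, with its log2 scaled signal, averaged over both arrays, on the x axis and the log2 ratio of the CML EV to the control EV array on the y axis. Grey points are all 13412 genes, coloured points the 38 members by step. The y axis ends at 1 in both directions, beyond which 83 genes are not drawn. Members lie mainly above 0, with Pfkfb4 at 0.51 and Hk3 at 0.33 as the highest, and the grey cloud is widest among dim genes.

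Other probes of the members gave a similar lean with individual exceptions. Of 68 probes, 65 were measured on both arrays, 46 of them higher and 19 lower with CML EVs at a median of 0.073. The 27 measured probes that did not stand for their gene had a median of 0.049, with 19 higher. Among the 18 members with several measured probes, all probes were higher in 7, all were lower in 3, and the probes differed in sign in 8. The median range between the probes of a member was 0.11. A single measured probe stood for the other 20 members. Further probes of Hk1 (signals 6.52 and 8.92) and Pfkfb4 (3.07 and 7.48) were not well above background on either array. A Vegfa probe was well above background with control EVs alone, at 18.2 against 11.4, and at least 1.34-fold lower with CML EVs.

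Promoter windows of the members often held the HIF core letters. RefSeq windows on GRCm38.p6, from 250 bases before to 50 bases after a gene's start, were at hand for 36 members in 50 windows, with Slc2a3 and Ndrg1 missing. ACGTG or GCGTG on either strand was present in 41 of 50 windows (82.0%), against 43.8% of all 32851 windows. The members' windows were richer in GC, with a median of 62.2% against 52.7%, and of 8821 windows with a GC content inside the interquartile range of the members' windows 63.1% held a core. ACGTG was found in 58.0% of the members' windows against 19.6% of all and 25.9% of those with like GC content. GCGTG was found in 58.0% against 32.4% and 51.6%, and CACGTG, which contains ACGTG and is also an E-box, in 12% against 7.15% and 10.3%. With like GC content the shares of GCGTG and CACGTG thus lay near the background. The 33 members with a core had a median log2 ratio of 0.085, with 23 higher, and the 3 without one, Gpi1, Tpi1 and Eno2, had a median of 0.16, with all 3 higher. The list was chosen to hold HIF targets, so these shares may follow from that choice and are no result of the arrays. Several windows of a gene were counted separately. A match of letters is a description and no binding site.

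The windows of the 2 highest and the 2 lowest members with a window are shown, so that the letters can be read beside the values at both ends of the list. They are written 5′ to 3′ on the strand of the gene, with ACGTG and GCGTG in capitals, or CACGT and CACGC where the core lies on the other strand. Pfkfb4 (chr9:108991652-108991951, + strand) holds 1 core at position -117 from the start, and Hk3 (chr13:55021336-55021635, - strand) holds 1 at -156. Pdk1 has 2 windows, 1 with 2 cores at -78 and -2 (chr2:71872974-71873273, + strand) and 1 without a core (chr2:71874654-71874953, + strand). Arnt (chr3:95434140-95434439, + strand) holds 1 core at -29. Both ends of the list have a window with a core, as do 33 of the 36 members with windows, so a core does not set the ends apart.
Pfkfb4: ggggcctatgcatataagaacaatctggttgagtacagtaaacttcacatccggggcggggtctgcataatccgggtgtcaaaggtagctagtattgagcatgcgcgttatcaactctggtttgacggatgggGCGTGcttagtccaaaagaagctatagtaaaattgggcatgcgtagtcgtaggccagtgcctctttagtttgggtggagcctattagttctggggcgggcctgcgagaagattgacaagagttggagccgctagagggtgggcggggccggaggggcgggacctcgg
Hk3: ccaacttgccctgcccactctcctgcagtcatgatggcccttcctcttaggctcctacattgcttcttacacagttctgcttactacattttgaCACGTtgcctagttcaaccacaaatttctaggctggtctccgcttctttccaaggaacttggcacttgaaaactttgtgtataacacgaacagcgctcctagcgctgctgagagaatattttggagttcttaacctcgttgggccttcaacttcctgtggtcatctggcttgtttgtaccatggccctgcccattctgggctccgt
Pdk1, window with cores: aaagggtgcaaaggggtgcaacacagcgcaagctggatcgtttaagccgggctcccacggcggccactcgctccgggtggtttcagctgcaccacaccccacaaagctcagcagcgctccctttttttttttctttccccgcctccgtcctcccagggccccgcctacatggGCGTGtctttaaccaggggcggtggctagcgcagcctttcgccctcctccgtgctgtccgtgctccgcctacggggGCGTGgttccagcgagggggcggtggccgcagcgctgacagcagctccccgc
Pdk1, window without a core: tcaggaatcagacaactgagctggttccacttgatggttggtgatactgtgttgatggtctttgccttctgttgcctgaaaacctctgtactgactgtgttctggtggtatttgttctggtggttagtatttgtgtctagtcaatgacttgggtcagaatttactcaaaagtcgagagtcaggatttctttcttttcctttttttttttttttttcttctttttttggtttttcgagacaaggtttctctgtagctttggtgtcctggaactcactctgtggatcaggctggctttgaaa
Arnt: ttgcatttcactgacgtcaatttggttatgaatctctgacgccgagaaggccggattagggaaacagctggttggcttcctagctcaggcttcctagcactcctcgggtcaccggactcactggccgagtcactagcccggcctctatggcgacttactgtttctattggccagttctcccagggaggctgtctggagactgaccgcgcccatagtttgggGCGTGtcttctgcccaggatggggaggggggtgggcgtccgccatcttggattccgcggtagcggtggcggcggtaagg

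Glucose uptake split between its transporters. Slc2a1, which encodes the broadly expressed transporter GLUT1, had a signal of 4035 after control EVs and 4614 after CML EVs, a log2 ratio of 0.19. Slc2a3, which encodes the high-affinity transporter GLUT3, had 4353 and 4025, a log2 ratio of -0.11, and a dim probe of the same gene was lower as well, at 56.9 and 45.5. The difference between the log2 ratios of Slc2a1 and Slc2a3 was 0.31.

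The upper reactions of glycolysis, with their regulators, held both members past 25% and had a median log2 ratio of 0.14. Of 12 genes, 10 were higher with CML EVs and 6 were at least 10% higher. Pfkfb4 encodes a bifunctional enzyme that sets the level of fructose 2,6-bisphosphate, the allosteric activator of phosphofructokinase. Its signal was 797 after control EVs and 1135 after CML EVs, or 1.42-fold, which placed it at rank 281 of 13412 genes. Pfkfb3, the related enzyme with the stronger kinase activity, had 1913 and 2120, a log2 ratio of 0.15, while a dim probe of it gave -0.08 at 48.4 and 45.9. The log2 ratio of Pfkfb4 exceeded that of Pfkfb3 by 0.36.

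Hexokinases trap glucose in the cell as glucose 6-phosphate. Hk3, the isoform typical of myeloid cells, had a signal of 21458 after control EVs and 26910 after CML EVs, or 1.25-fold, at rank 656. Its other probe gave the same log2 ratio of 0.33 at 4927 and 6175. Hk2, the isoform induced by HIF and insulin in many tissues, had 1554 and 1738, a log2 ratio of 0.16. Hk1, the common isoform, had 8939 and 9402, a log2 ratio of 0.073. Hk3 thus exceeded Hk1 by 0.25 and Hk2 by 0.16 in log2 ratio.

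The subunits of phosphofructokinase, which catalyses the committed step, differed among themselves. Pfkl, the liver-type subunit, had signals of 3279 and 3560, a log2 ratio of 0.12. Pfkp, the platelet-type subunit, had 5374 and 5865, with 0.13 and 0.18 at its 2 probes. Pfkm, the muscle-type subunit, had 1993 and 1984, within the spot SD of 0. The differences in log2 ratio were 0.12 for Pfkl and 0.13 for Pfkp over Pfkm.

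The isomerases and aldolases ranged from -0.013 to 0.18 at the probe that stood for each gene. Gpi1, which turns glucose 6-phosphate into fructose 6-phosphate, had signals of 72592 and 81355, and its 3 probes gave log2 ratios from 0.16 to 0.28. Tpi1, which interconverts the triose phosphates, had 43246 and 49002, a log2 ratio of 0.18, with 0.072 and 0.086 at its other probes. All probes of both isomerases were higher with CML EVs. Aldoa, the main aldolase outside liver and brain, had 199314 and 207455, a log2 ratio of 0.058. Aldoc, the isoform best known from brain, had 15489 and 15355, and the SD over the 10 spots of this probe was 0.052 around a log2 ratio of -0.013. A second repeated probe of Aldoc gave 0.045 with an SD of 0.038, so that the sign of Aldoc depended on the probe.

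The lower reactions had a median log2 ratio of 0.027, and their difference from the upper ones could not be tested with 1 array per condition. With CML EVs 3 of 6 genes were higher, 3 were lower, and only Pgam1 was at least 10% higher. Gapdh, the dehydrogenase of this phase and the reference gene of qRT-PCR in the methods, had signals of 127271 after control EVs and 127128 after CML EVs. Its 6 probes gave log2 ratios from -0.027 to 0.078. Pgk1, the kinase that makes the first ATP of this phase, had 167879 and 162808, a log2 ratio of -0.044. Pgam1, a mutase, had 49492 and 54554, a log2 ratio of 0.14 with an SD of 0.041 over 10 spots, each of them above 0 (0.061 to 0.19), and its other probe gave 0.029.

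Eno1, the common enolase, had signals of 70851 and 69976, a log2 ratio of -0.018, but a dimmer probe gave 0.19 at 8494 and 9706. Eno2, the enolase of neurons, had 387 and 403, a log2 ratio of 0.057. Pkm, the pyruvate kinase that ends glycolysis, had 65886 and 68501, and both of its probes were at 0.050 to 0.056. Under median scaling the ratios of Gapdh, Pgk1 and Eno1 lay above 0, at 0.069, 0.026 and 0.052. Several of these genes have processed pseudogenes or near-identical copies in the mouse genome, Gapdh and Pgk1 among them, and signal shared with copies was not tested.

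**Figure D2:**
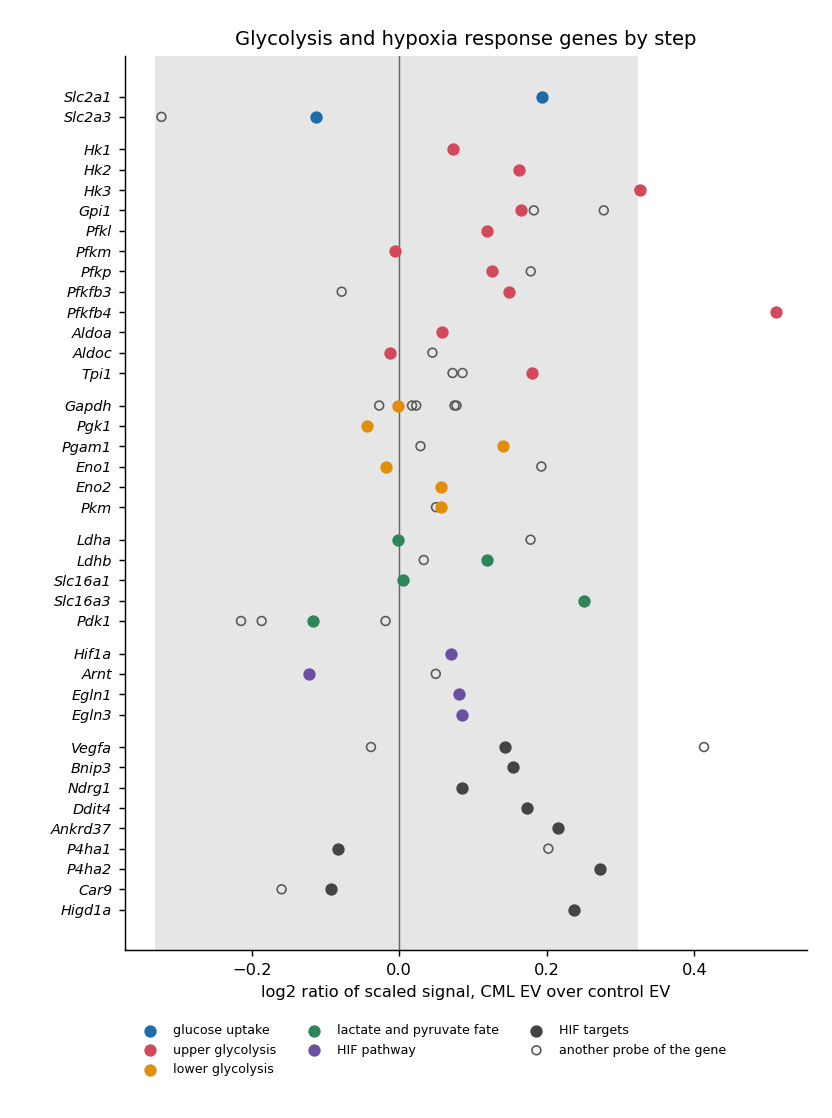
Log2 ratio of the CML EV to the control EV array (x axis) for each of the 38 members, ordered by step (y axis). Filled points are the probe that stands for the gene and open points its other probes measured on both arrays. The grey band holds the middle 90% of all genes, from -0.33 to 0.32. Only Pfkfb4 at 0.51 and Hk3 at 0.33 have their filled point beyond the band, and the points of a gene often lie on both sides of 0.

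In lactate and pyruvate handling the lactate transporters differed from each other, and Pdk1 was lower. Slc16a3 encodes MCT4, the HIF-dependent transporter used for lactate export, and had a signal of 15870 after control EVs and 18880 after CML EVs, a log2 ratio of 0.25. Slc16a1 encodes MCT1, which can carry lactate in both directions, and had 3087 and 3099, a log2 ratio of 0.0054 that was below 0 under quantile normalization. The log2 ratio of Slc16a3 exceeded that of Slc16a1 by 0.25. Ldha, the lactate dehydrogenase subunit that favours lactate formation, had 101718 and 101632, a log2 ratio of -0.0012, while another probe gave 0.18 at 6554 and 7415. Ldhb, the subunit that favours pyruvate formation, had 813 and 883, a log2 ratio of 0.12, with 0.033 at a dim probe. Pdk1, a kinase that blocks entry of pyruvate into the TCA cycle and a known HIF target, was lower at all of its 4 probes, which gave -0.21 to -0.019. Its brightest probe had 2680 and 2472, a log2 ratio of -0.12. The 5 genes of this step had a median of 0.0054, with 3 higher and 1 at least 10% higher.

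Genes of the HIF pathway itself differed by under 10% each. Hif1a, the oxygen-regulated subunit, had a signal of 1946 after control EVs and 2042 after CML EVs, a log2 ratio of 0.070. Arnt, its constant partner, had 551 and 506, a log2 ratio of -0.12, with 0.049 at a dim probe. Egln1, the main prolyl hydroxylase that marks HIF-1α for degradation, had 4609 and 4875, a log2 ratio of 0.081. Egln3, a prolyl hydroxylase that is itself a HIF target, had 2442 and 2590, a log2 ratio of 0.085. The median of the 4 was 0.075. HIF-1α is controlled mainly through protein stability, which an mRNA array does not measure.

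HIF targets outside glycolysis had the highest median of the 6 steps, at 0.15 against 0.14 for upper glycolysis, an order that turned under normexp (0.145 and 0.147). None was 25% higher here, though P4ha2 was under median scaling. Of 9 genes, 7 were higher with CML EVs and 6 were at least 10% higher. P4ha2, a subunit of the prolyl hydroxylase of collagen, had signals of 163 after control EVs and 197 after CML EVs, a log2 ratio of 0.27 at a log2 signal under 8, where the spot SD was 0.17. P4ha1, the alternative subunit of this enzyme, had 659 and 622, a log2 ratio of -0.082, with 0.20 at a dim probe. Higd1a, a small mitochondrial protein of the hypoxia response, had 20339 and 23956, a log2 ratio of 0.24. Ankrd37 had 1010 and 1172, a log2 ratio of 0.21. Ddit4, which encodes the mTORC1 inhibitor REDD1, had 10128 and 11420, a log2 ratio of 0.17. All 3 were read from 1 spot each and lay more than 2 spot SDs above 0. So did 31.5% of the 9091 genes of log2 signal 8 or more. The spot SD does not cover cultures or EV preparations.

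Bnip3, a receptor for mitophagy, had signals of 19104 and 21260, a log2 ratio of 0.15. Ndrg1, a stress-induced cytosolic protein, had 16009 and 16985, a log2 ratio of 0.085. Vegfa, the angiogenic growth factor, had 905 and 999, a log2 ratio of 0.14, and its further measured probes gave 0.41 at 496 and 661 and -0.038 at 231 and 225. The Vegfa probes therefore did not share a sign. Car9, which encodes the hypoxia marker carbonic anhydrase IX, had 725 and 680, a log2 ratio of -0.093, and its other probe gave -0.16 at 195 and 174. Among the HIF targets, Car9 was the gene with all probes lower.

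**Figure D3:**
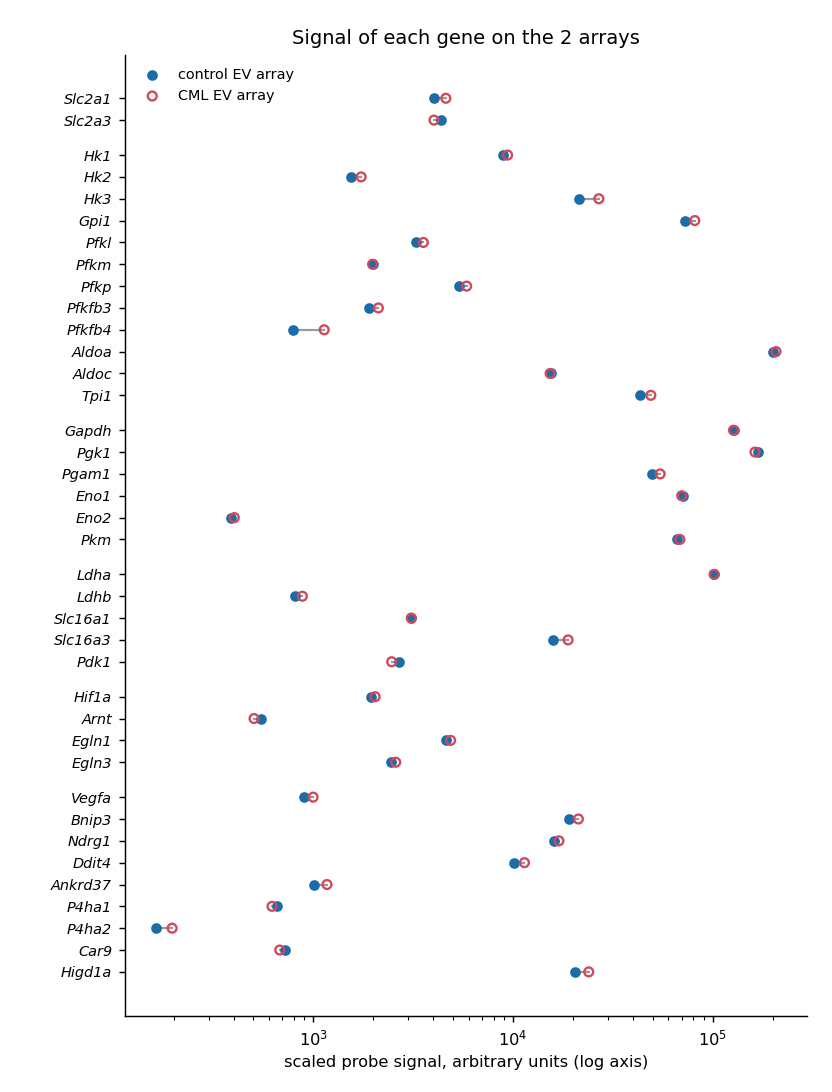
Scaled signal of each of the 38 members (log axis) on the control EV array and the CML EV array, ordered by step, from the probe that stands for the gene. Signals run from 163 for P4ha2 to 207455 for Aldoa, and the points of a gene lie close together, with the widest gap for Pfkfb4 at 797 and 1135. Heights of different genes come from different probes and are not to be set against each other.

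Markers of granulocytes and of progenitors differed between the arrays alongside these values. The progenitor genes Kit (1646 after control EVs and 1529 after CML EVs), Ly6a (1548 and 1985) and Cd34 (24845 and 21997) were well above background on both arrays. The stem and progenitor list had 9 of 10 genes measured, a median log2 ratio of -0.11 with 1 higher, and a summed signal of 38737 and 35183. Primary granule genes were 5 of 6 measured, all 5 higher at a median of 0.67, with a summed signal of 303743 and 391919. Their log2 ratios ran from 0.27 for Mpo, at 213990 and 258638, to 1.18 for Elane, at 15311 and 34735. Late neutrophil genes were 6 of 8 measured, 4 higher and 2 lower at a median of 0.55, with a summed signal of 37788 and 60477. Their log2 ratios ran from -0.094 for Mmp8, at 10015 and 9382, to 0.91 for Ltf, at 7821 and 14729. Mmp9 was not well above background on either array, and Ly6g had no named probe. The part of these cells in the values of the 38 genes, Hk3 included, was not tested. In a bulk sample, fewer cells of a type and less RNA in each cell cannot be told apart.

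Lists of other cell types had smaller medians or lay lower. Megakaryocyte genes were 6 of 6 measured, all lower at a median of -0.29, with a summed signal of 76112 and 69042. Monocyte and macrophage genes were 7 of 7 measured at a median of 0.049, with a summed signal of 49577 and 67262. Erythroid genes were 4 of 6 measured, 2 higher and 2 lower at a median of 0.084 (2551 and 2563 in sum), and the globin gene Hbb-bt among them had 510 and 314, a log2 ratio of -0.70. T cell genes were 4 of 5 measured at -0.087 (2040 and 1926), and B cell genes 1 of 5 at 0.032, with Cd79a not well above background on either array.

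Neighbouring pathways were set beside the members through lists of their own. Further HIF targets had 36 of 44 genes measured, 28 (77.8%) higher and 17 (47.2%) at least 10% higher with CML EVs at a median log2 ratio of 0.12. The same shares over all genes were 52.0% and 17.3%, and over genes of signal 1000 or more 59.7% and 14.0%. The vascular receptor gene Flt1 had signals of 102 and 140 and the inducible nitric oxide synthase gene Nos2 had 234 and 318, log2 ratios of 0.45 and 0.44. Loxl2, a lysyl oxidase of the matrix, had 173 and 112 and a log2 ratio of -0.63, so that the largest difference of the list ran toward control EVs. Genes that regulate HIF had 19 of 20 measured, 9 (47.4%) higher at a median of -0.0093. Among them the coactivator gene Ep300 had 201 and 269 with -0.03 at another probe, Epas1, which encodes HIF-2α, had 111 and 135, and the ubiquitin ligase scaffold gene Cul2 had 789 and 692.

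The pentose phosphate pathway branches from glucose 6-phosphate and makes NADPH and ribose. Of its 10 genes, all measured, 9 (90%) were higher and 5 (50%) were at least 10% higher with CML EVs at a median log2 ratio of 0.13, against 52.0% and 17.3% of all genes. G6pdx, its first enzyme, had signals of 10263 after control EVs and 13222 after CML EVs, a log2 ratio of 0.37. Pgd, the next dehydrogenase, had 9848 and 11517, a log2 ratio of 0.23, and the isomerase gene Rpia had 3532 and 4073, a log2 ratio of 0.21. All 3 had higher signals with CML EVs, as did most of the pathway.

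Genes of pyruvate entry and the TCA cycle had 35 of 36 measured at a median log2 ratio of 0.062. Higher were 29 (82.9%), against 52.0% of all genes and 59.7% of those of signal 1000 or more. At least 10% higher were 5 (14.3%), a share near the 17.3% of all genes. Pdp1, the phosphatase that opposes the Pdk kinases, had 358 and 282 and a log2 ratio of -0.34, with -0.14 at another probe. Acly, which makes cytosolic acetyl-CoA, had 19940 and 22561, and Sucla2, a subunit of succinyl-CoA ligase, had 475 and 530. Glycogen and gluconeogenesis genes had 17 of 21 measured at a median of 0.069. Of these, 13 (76.5%) were higher and 5 (29.4%) at least 10% higher, against 52.0% and 17.3% of all genes. Pygl, a glycogen phosphorylase, had 12382 and 15320, a log2 ratio of 0.31, Pgm1 had 11440 and 13342, and Ugp2 had 1720 and 1978. Isoforms and genes related to the glycolytic members by name or function had 13 of 23 measured at a median of 0.037. Higher were 10 (76.9%), against 52.0% of all genes. At least 10% higher were 2 (15.4%), a share near the 17.3% of all genes. In this list the sugar transporter gene Slc2a6 had 4935 and 5662, and Pgam5, a mitochondrial protein phosphatase with a mutase-like name, had 3499 and 3724. The muscle enolase gene Eno3 had 670 and 575, a log2 ratio of -0.22.

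**Figure D4:**
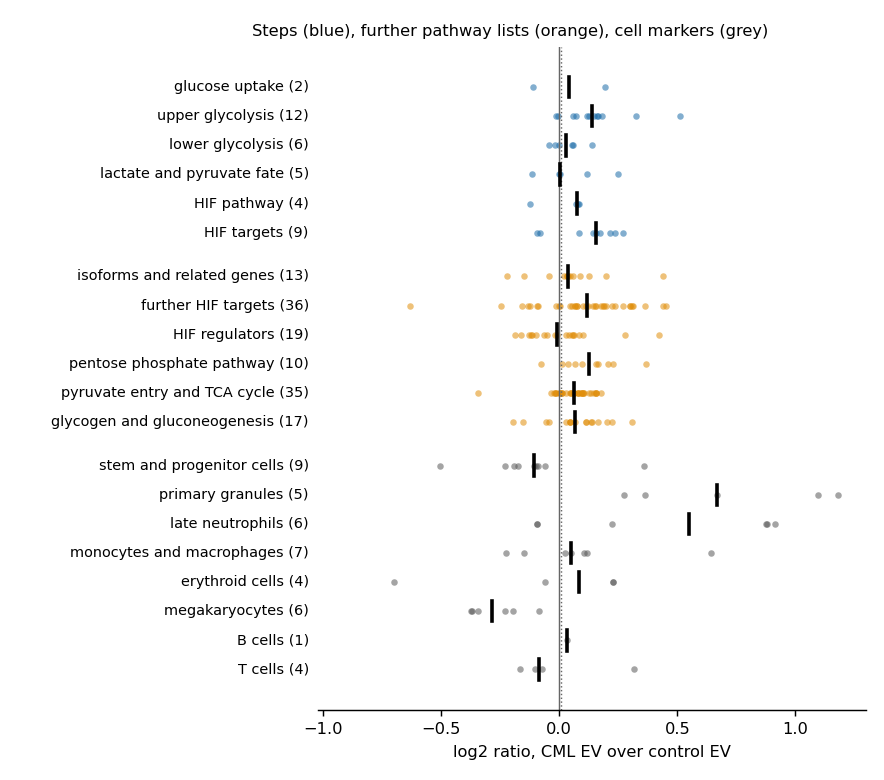
Log2 ratio of the CML EV to the control EV array for every measured gene of the 6 steps (blue), the 6 further lists (orange) and the 8 marker lists (grey). A black bar is the median of a list, and the dotted line is the median of all genes at 0.0065. Medians of the steps run from 0.0054 for lactate and pyruvate fate to 0.15 for HIF targets, and those of primary granule genes (0.67) and late neutrophil genes (0.55) stand above them all.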

How the data were processed

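Total RNA of 2 LKS+ cultures, 1 with control EVs and 1 with CML EVs, was labelled with cyanine 3 and hybridized to one-colour Agilent mouse arrays. The authors' scanner files, from Agilent Feature Extraction 12.0.3.1 per the submitters' processing notes, hold intensities after background subtraction for 59305 spots besides controls. On the arrays, 54.4% and 53.3% of these spots were well above background with control EVs and CML EVs, and none was saturated. The deposited value table equals this intensity multiplied by an array-wide factor (0.942 and 0.947), neither log-transformed nor centred, with medians of 22.2 and 21.2. The array design refers to another assembly than the promoter windows, so that probes have no coordinates here.

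From the scanner intensity, outlier spots (95 and 88) were removed, arrays were brought to a trimmed mean of 2500 (upper and lower 2% of spots excluded), and spots sharing a probe were averaged as log2 values. Probes received gene names through RefSeq accessions (GRCm38.p6 table), which left 23610 of 56604 unnamed. The brightest probe with CML EVs stood for a gene, after the methods. The bound for a probe above background on 1 array used the lowest such signal on the other (13.6 with CML EVs).

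Members and lists were chosen with earlier results of these data known, and the further and marker lists were written from general knowledge. Named were all members, the 3 genes of each further list with the largest absolute log2 ratio and signals of at least 100, and defining markers, of which 2 are not reported here. With 1 array per condition no test was made, and the number of arrays limits the precision. The scripts were tested on simulated data. Alternatives covered scaling, normexp background correction (limma 3.58.1, offset 50), deposited values, choice of probe, outliers, filters and thresholds. A loess fit on signal (statsmodels 0.14.6, span 0.3) and the 10% threshold were added after seeing the data. Other software was R 4.3.3 and Python 3.11.15 with pandas 2.3.3 and numpy 2.4.6.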

Additional observations from a re-analysis of the deposited data

How the results depend on the processing

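No paired analysis was possible because there was 1 array per condition, and no array could be left out. The members' median log2 ratio of 0.085 was 0.16 under median scaling, which moved the median of all genes to 0.077. It stood above the median of all genes by 0.079 here, 0.067 under quantile normalization, 0.11 under normexp, 0.068 with the loess trend removed and 0.044 with no filter on dim probes, the smallest value, where the median of all genes was 0.041. Median scaling also gave 0.11 for glucose uptake, 0.21 for upper glycolysis, 0.098 for lower glycolysis, 0.076 for lactate and pyruvate fate, 0.15 for the HIF pathway and 0.22 for HIF targets. For the further lists it gave 0.19 for further HIF targets, 0.061 for HIF regulators, 0.20 for the pentose phosphate pathway, 0.13 for pyruvate entry and the TCA cycle, 0.14 for glycogen and gluconeogenesis and 0.11 for isoforms and related genes. With the mean of all probes glucose uptake was at -0.012, lactate and pyruvate fate at 0.076 and HIF regulators at -0.050. Under normexp HIF regulators were at 0.033 and isoforms and related genes at -0.0044, and the medians of HIF targets (0.145) and upper glycolysis (0.147) changed order. The cause was not tested. The number of members at least 25% higher was 1 (Pfkfb4) under quantile normalization and with the loess trend removed, 0 at 1.5-fold and 15 at 10%. Under median scaling Hk3, P4ha2 and Pfkfb4 were at least 25% higher, together with 7.38% of all genes. Members higher with CML EVs numbered 27 here, 30 under 75th percentile scaling, 33 under median scaling and 32 where probes of a gene were averaged. The shares of all genes that were higher were 52.0%, 54.4%, 71.1% and 51.0% in the same order. The signs of Gapdh, Ldha, Pfkm, Eno1, Aldoc, Pgk1, P4ha1 and Slc16a1 changed in at least 1 setting. Of the values for lists and counts 158 moved by less than the spread between probes or spots, or by under 1.5 times, and 22 by more. Signals of dim probes limit single ratios, with a spot SD of 0.17.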
